A study of Mus musculus with 4 samples.

Results

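The 10 genes described here encode proteins that hepatocytes secrete into blood plasma. They were taken by ID, under a rule that uses no measured value, from the 53465 Ensembl gene IDs of the count table: Fga (ENSMUSG00000028001), Fgb (ENSMUSG00000033831), Fgg (ENSMUSG00000033860), F2 (ENSMUSG00000027249), C3 (ENSMUSG00000024164), Ahsg (ENSMUSG00000022868), Ambp (ENSMUSG00000028356), Rbp4 (ENSMUSG00000024990), Ttr (ENSMUSG00000061808) and Vtn (ENSMUSG00000017344). Only 3 of the 10, Fgb, C3 and Rbp4, were measured at a mean of 1 CPM (1 read per 1000000 counted, after scaling) or more, and these 3 held at least 99.5% of the members' reads in each library. The other 7 members had between 0 and 60 reads in any library. Of all 53465 IDs, 24.2% reached a mean of 1 CPM and 58.8% had 0 reads in all 4 libraries. The 3 of 10 is thus near the share in the whole table.

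The libraries came from Hepa 1-6, a mouse hepatocellular carcinoma line. One pair was made from cells with a control guide (sgcontrol, genotype WT in the labels) and one pair from cells with a guide for Usp5 (sgUsp5, Usp5 Knockdown), a gene for a deubiquitinating enzyme. Each pair holds the input, for which 10% of the lysate was kept, and the RNA precipitated from the lysate with an antibody to YTHDF1 (RIP), a cytoplasmic reader of N6-methyladenosine. The 4 groups thus had 1 library each, of 30804293 counts (control input), 31751069 counts (Usp5 guide input), 33941019 counts (control RIP) and 29898171 counts (Usp5 guide RIP). Whether the cells of a guide were a clone or a pool is not given in the sources used here. No precipitate with a control antibody was used here, and the level of Usp5 was not analysed, so the knockdown label was not checked. Usp5 guide and control differ by 1 library on each side, so no p-value is given for that difference.

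The liver is the source of most plasma proteins. Fibrinogen is built from paired alpha, beta and gamma chains, from Fga, Fgb and Fgg, and all are needed for the hexamer that thrombin, made from the zymogen F2, turns into fibrin. C3 is the central component of complement. Rbp4 carries retinol in blood and travels bound to transthyretin (Ttr). Ahsg (fetuin-A) binds calcium phosphate mineral, Ambp is the precursor of alpha-1-microglobulin and the protease inhibitor bikunin, and Vtn (vitronectin) is an adhesion protein of plasma and matrix. Several of these genes, fibrinogen among them, belong to the acute phase response that interleukin-6 drives in hepatocytes.

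The fibrinogen genes lie side by side in the mouse genome, and their promoters are shown because Fgb alone of the fibrinogen genes was read in number. In RefSeq's annotation of GRCm38.p6, the build of the files (mm10), Fgg spans chr3:83007724-83015056 and Fga chr3:83026153-83033627, both on the plus strand, and Fgb spans chr3:83042246-83049863 on the minus strand. The gap between Fgg and Fga is 11096 bases and that between Fga and Fgb 8618 bases. Below are the 250 bases before each RefSeq start, 5′ to 3′ on the gene's own strand, at chr3:83049864-83050113 (Fgb), chr3:83025903-83026152 (Fga) and chr3:83007474-83007723 (Fgg). Capitals mark letter matches, on either strand, to the motifs named after the sequences.

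Fgb: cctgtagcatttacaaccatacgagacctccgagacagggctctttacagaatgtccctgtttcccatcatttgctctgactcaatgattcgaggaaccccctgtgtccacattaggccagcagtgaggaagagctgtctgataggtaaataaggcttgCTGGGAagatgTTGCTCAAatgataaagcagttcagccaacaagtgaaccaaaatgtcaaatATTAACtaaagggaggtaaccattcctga

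Fga: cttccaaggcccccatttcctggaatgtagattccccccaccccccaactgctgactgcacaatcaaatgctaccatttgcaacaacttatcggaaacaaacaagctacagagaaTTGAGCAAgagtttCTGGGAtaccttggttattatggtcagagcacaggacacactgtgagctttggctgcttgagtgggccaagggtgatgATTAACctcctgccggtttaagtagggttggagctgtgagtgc

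Fgg: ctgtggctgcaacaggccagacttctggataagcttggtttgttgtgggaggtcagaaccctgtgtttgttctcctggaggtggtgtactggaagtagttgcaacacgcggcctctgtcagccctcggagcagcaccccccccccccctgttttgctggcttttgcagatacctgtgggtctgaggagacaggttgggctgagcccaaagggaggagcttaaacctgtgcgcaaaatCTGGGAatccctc

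Matches were searched on both strands. The liver factor HNF1 was represented by the core letters GTTAAT. Factors of the C/EBP family were represented by TTGCNNAA. The interleukin-6 response element known from fibrinogen genes was represented by CTGGGA. For HNF4 the letters were CAAAGTCCA, and for the TATA box they were TATAAA.

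No match overlapped another in these windows. Fgb and Fga each held an HNF1 core (at -29 and -43 from the start), one for the C/EBP family (at -80 and -135) and one interleukin-6 element (at -91 and -121). Fgg held an interleukin-6 element at -13 and no match to the other letters. Of 32851 promoter windows of 250 bases, 6.43% held the HNF1 letters, 9.56% those of the C/EBP family, 27.0% the interleukin-6 element, 0.384% the HNF4 letters and 12.4% the TATA box. Such matches describe letters, and whether any of them bears on the level of these genes was not tested. The windows of Fga and Fgb held the same kinds of match.

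Fgb, the beta chain gene, had 3447 reads in control input, 2466 in the Usp5 guide input, 2124 in the control RIP and 860 in the Usp5 guide RIP. Fga, the alpha chain gene, had 0 reads in all 4 libraries. Fgg, the gamma chain gene, had 1 read in the control RIP and 0 reads in the other libraries. With 0 reads, up to 3 counts remain possible, or 0.0841 to 0.105 CPM here, so the RNA of 2 of the 3 chains was at or under the limit of detection while the third was read in every library. RefSeq annotates no gene that overlaps Fgb. In bulk RNA, fewer cells with an mRNA and less of it per cell cannot be told apart.

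**Figure D1:**
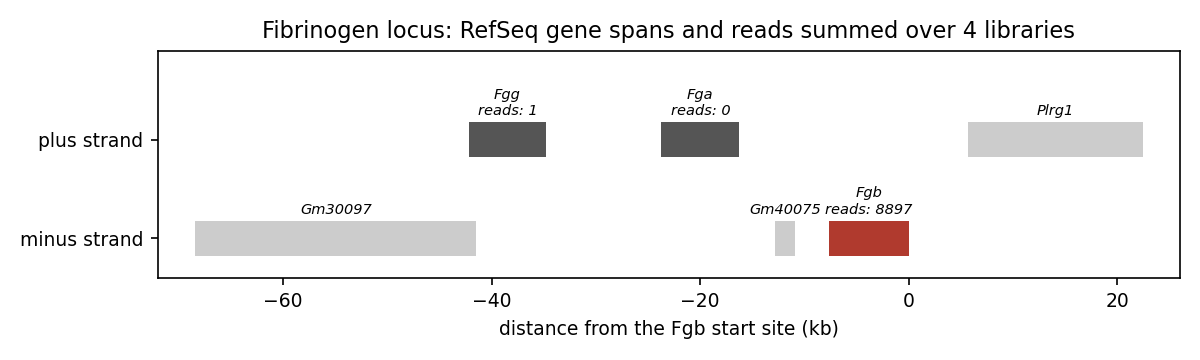
Map of the fibrinogen locus to scale, with distance from the Fgb start site in kb on the x axis and the strand on the y axis; each bar is the RefSeq span of a gene, and the number under a fibrinogen gene's name is its reads summed over the 4 libraries. Fgb had 8897 reads in all, Fgg 1 and Fga 0; light grey genes without a number were not looked up in the count table.

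F2, which encodes prothrombin, had 43 reads in the control RIP and 0 reads in the other 3 libraries. Its span (chr2:91612397-91636457) overlaps that of the protein-coding gene Ckap5 by 8283 bases, and how the counting treated strand and shared reads is not given in the sources used here. Ambp, Vtn and Ttr were read in the Usp5 guide input alone, with 4, 13 and 14 reads, which is 0.130 CPM (95% Poisson interval 0.0354 to 0.333), 0.423 CPM (0.225 to 0.723) and 0.455 CPM (0.249 to 0.763). Ahsg was the only one of the 7 with reads in each library, namely 9 in the control input, 60 in the Usp5 guide input, 23 in the control RIP and 23 in the Usp5 guide RIP. RefSeq lncRNA genes overlap the spans of Ahsg by 2372 bases, Ttr by 1052 bases and Fgg by 692 bases. The levels of Ahsg were 0.315, 1.95, 0.645 and 0.726 CPM in that order, with a mean of 0.909 CPM, under the minimum of 1 CPM.

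Of the 10 members, 5 had reads in 1 library alone, and such IDs were also found elsewhere in the table. Of the 15898 IDs read in the Usp5 guide input, 744 were read there alone, 345 of them with 10 reads or more. Of the 15909 IDs read in the control input, 744 were read there alone, 400 of them with 10 or more. Of the 18333 IDs read in the control RIP, 1622 were read there alone, and 25 of these, F2 included, had at least 43 reads. Ambp, Vtn and Ttr had at most 14 reads, with 1 library on each side. Their presence in the Usp5 guide input alone is not read as a difference between the guides. Of the hepatocyte markers listed for this work only Ttr could be looked up by ID, and it had 0 reads in 3 of the 4 libraries. The name "liver plasma proteins" thus fits what the 10 genes encode, while 7 of them were at or near 0 in these liver tumour cells. Only 24.2% of all IDs reached a mean of 1 CPM, so this count does not set the members apart from the table.

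**Figure D2:**
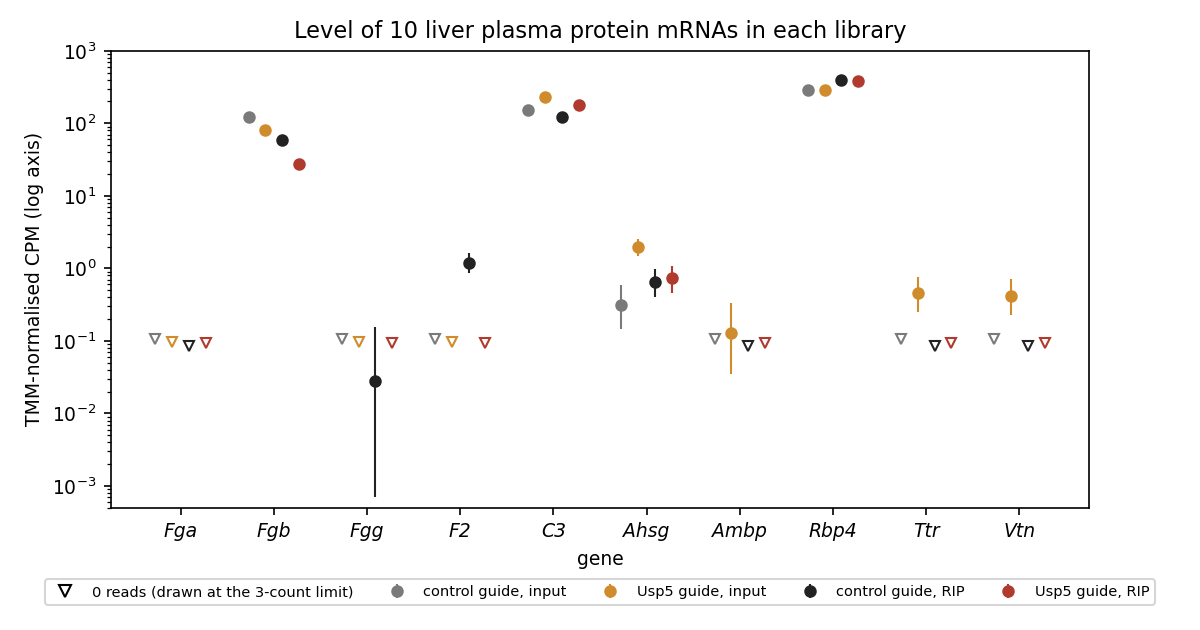
Level of each of the 10 genes in TMM-normalised CPM on a log axis, 1 point per library with its 95% Poisson counting interval; open triangles stand for 0 reads and are drawn at the limit of 3 counts. Fgb, C3 and Rbp4 lie between 27.1 and 394 CPM, and no point of the other 7 genes is above 1.95 CPM. Values are not per length, so heights are read within a gene.

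C3 had 4308 reads in the control input (151 CPM, 95% Poisson interval 146 to 156), 7022 in the Usp5 guide input (228 CPM, 223 to 234), 4331 in the control RIP (121 CPM, 118 to 125) and 5582 in the Usp5 guide RIP (176 CPM, 172 to 181). Both libraries of the Usp5 guide were above the control library of their own fraction. RefSeq places C3 at chr17:57203967-57228136 on the minus strand, with the microRNA gene Mir6978 inside its span.

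Rbp4 had 8226 reads in the control input (288 CPM, 282 to 295), 8788 in the Usp5 guide input (286 CPM, 280 to 292), 14063 in the control RIP (394 CPM, 388 to 401) and 11963 in the Usp5 guide RIP (378 CPM, 371 to 384). Both RIP libraries were above both inputs, and the inputs were within each other's counting intervals. Rbp4 lies at chr19:38116620-38125321 on the minus strand, and RefSeq annotates no gene that overlaps it. Its partner in plasma, Ttr, was at 0 in 3 libraries.

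Fgb stood at 121 CPM in the control input (117 to 125), 80.2 CPM in the Usp5 guide input (77.0 to 83.4), 59.5 CPM in the control RIP (57.0 to 62.1) and 27.1 CPM in the Usp5 guide RIP (25.4 to 29.0). No interval overlapped another, and the RIP of each line lay below its input. These intervals cover counting error only, and PCR copies of a molecule, which no molecular identifier marks here, count as separate reads. Together the 10 genes took 0.0519% of counts in the control input, 0.0578% in the Usp5 guide input, 0.0606% in the control RIP and 0.0616% in the Usp5 guide RIP.

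Which plasma protein mRNAs were recovered with YTHDF1 was asked first. Fgb fell in the precipitate, Rbp4 rose, and C3 did not pass the test. In a fit to all 4 libraries that included the line as a term (a block), log2 RIP over input was -1.29 (SE 0.22) for Fgb, 0.43 (SE 0.13) for Rbp4 and -0.34 (SE 0.15) for C3. The adjusted p over all genes tested was 0.00259, 0.038 and 0.132, respectively (edgeR's quasi-likelihood test, which had 1 residual degree of freedom). The test takes part of each gene's spread from the other genes, so these p-values do not rest on the gene's own libraries alone. The 2 lines, which differ in guide, stand in for replicates, so any difference in enrichment between the guides counts as error. The SE and p-values thus do not measure the spread of replicates of 1 condition. By this test 21.4% of all 12927 genes and 42.1% of the 5244 genes at a mean of 32 CPM or more were called, beside 2 of the 3 measured members, which are all above 32 CPM. Without the block the adjusted p was 0.0725 for Fgb and 0.0531 for Rbp4. For Rbp4 it was 0.0565 with DESeq2's size factors and 0.0691 over all genes with 10 reads. The call for Fgb held under each of these scalings and filters but not without the block, and that for Rbp4 failed in each of these 3 cases.

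Within a line the comparison has 1 library on each side, and a gene was called at 2-fold or more with a 95% counting interval that excluded 1. In control cells Fgb was 2.03-fold lower in the RIP (log2 ratio -1.02, interval -1.10 to -0.94). C3 was at -0.31 (-0.38 to -0.25) and Rbp4 at 0.45 (0.41 to 0.49), a 1.37-fold higher level. Fgb was thus the 1 member called, where 33.4% of all genes and 20.7% of those at 32 CPM or more were called. Its value sits at the limit, and with library totals in place of TMM factors it was -0.84 and no longer called.

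In cells with the Usp5 guide Fgb was 2.95-fold lower in the RIP (log2 ratio -1.56, -1.68 to -1.45). C3 was at -0.37 (-0.42 to -0.32) and Rbp4 at 0.40 (0.36 to 0.44), 1.32-fold higher. Fgb was again the 1 member called, beside 29.6% of all genes and 15.4% of those at 32 CPM or more. Each of the 3 genes had the same direction in both lines. Of the 5243 other genes at 32 CPM or more, 66 were at or below Fgb in both lines and 1047 were at or above Rbp4 in both. Taken by line, 11.1% of the genes at 32 CPM or more were lower than Fgb in control cells and 1.45% in cells with the Usp5 guide. Fgb was thus among the most depleted of the well-read mRNAs with the Usp5 guide and less so with the control guide. Ratios like that of Rbp4 were frequent.

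**Figure D3:**
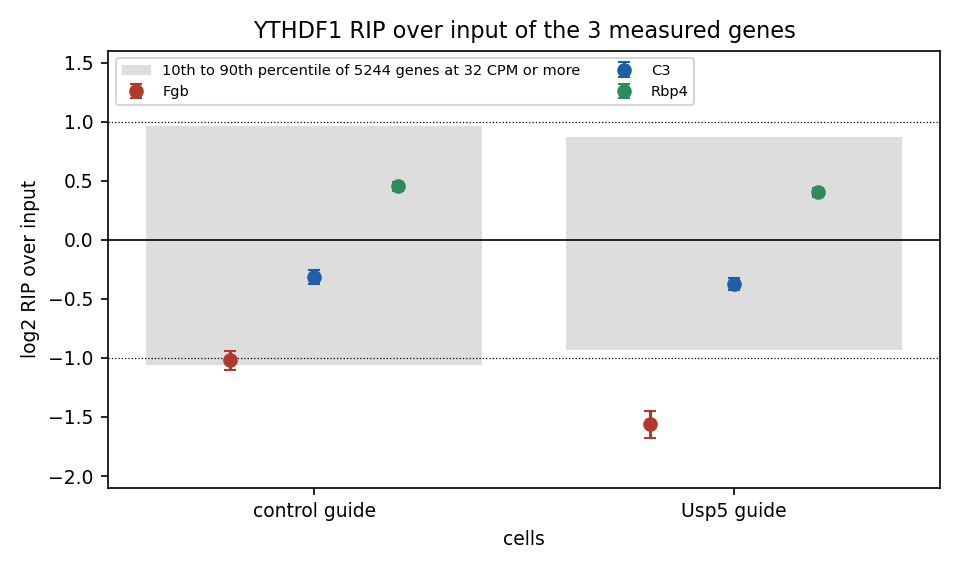
Log2 RIP over input (y axis) of Fgb, C3 and Rbp4 in cells with either guide (x axis), with 95% counting intervals; grey boxes span the 10th to the 90th percentile of the 5244 genes at a mean of 32 CPM or more, and dotted lines mark 2-fold. In control cells Fgb, at -1.02, is just above the 10th percentile of -1.06, and in cells with the Usp5 guide, at -1.56, it is below the 10th percentile of -0.93; C3 and Rbp4 are inside the box in both.

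The second question was how the mRNAs differed with the Usp5 guide in total RNA. In the inputs Fgb was 1.51-fold lower (log2 ratio -0.59, -0.67 to -0.52) and C3 1.51-fold higher (0.60, 0.54 to 0.65) with the Usp5 guide. Rbp4 was at -0.01 (-0.06 to 0.03). None of the 3 reached 2-fold, where 24.6% of all genes and 2.17% of those at 32 CPM or more were called. Of the genes at 32 CPM or more, 6.85% were lower than Fgb and 5.84% were higher than C3 by this ratio. In genes at a mean log2 CPM of 6 or more the inputs scattered by 101 times the binomial variance, and intervals widened by that factor were -1.40 to 0.20 for Fgb and 0.03 to 1.18 for C3. The widened interval of Fgb thus includes no difference, and that of C3 excludes it narrowly.

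In the RIP libraries the Usp5 guide went with a larger difference for Fgb. Its level was 2.19-fold lower (log2 ratio -1.13, -1.25 to -1.02), and C3 was 1.45-fold higher (0.54, 0.48 to 0.59). Rbp4 was at -0.06 (-0.10 to -0.03). Fgb was the 1 member called here, beside 9.17% of all genes but only 0.172% of those at 32 CPM or more, which is 9 genes, 4 of them higher and 5, Fgb included, lower. Widened by the scatter of the RIP libraries, 46.8 times the binomial variance, the interval of Fgb was -2.00 to -0.32 and that of C3 0.13 to 0.94, both without 0. The scatter was measured on the same pair of libraries and so holds any effect of the guide.

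Fgb was lower and C3 higher with the Usp5 guide in both fractions. Of the 5243 other genes at 32 CPM or more, 4 were at or below Fgb in both fractions and 16 were at or above C3 in both. The input and the RIP of a line were taken from a lysate of the same cells, so these are not independent replicates of the guide. With 1 library on each side, a difference that comes with the guide and one that comes with the culture, lysate or library cannot be told apart.

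**Figure D4:**
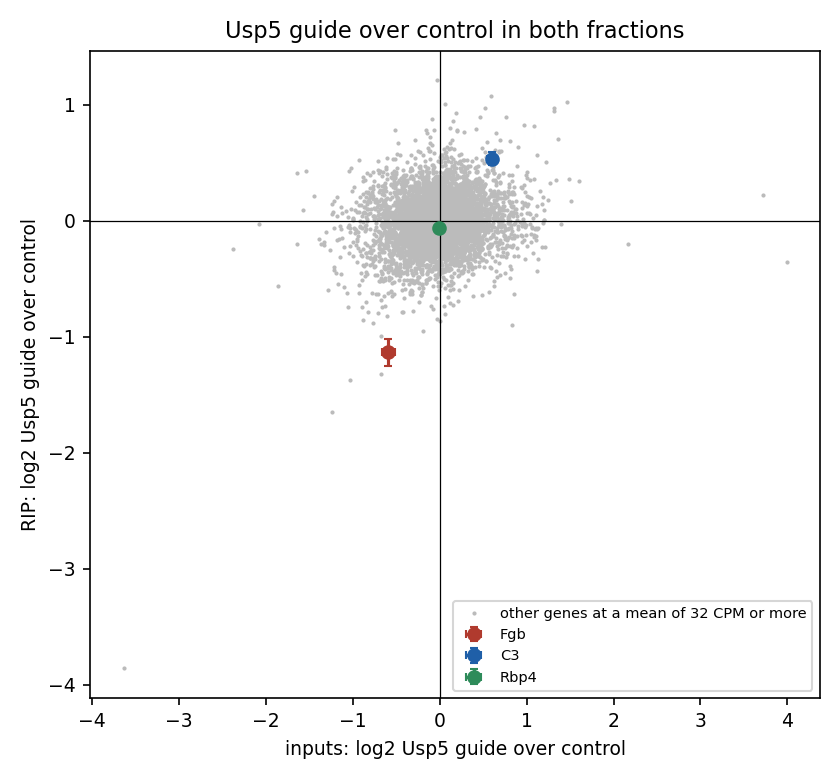
Log2 ratio of Usp5 guide over control in the RIP libraries (y axis) against that in the inputs (x axis) for genes at a mean of 32 CPM or more, with Fgb, C3 and Rbp4 in colour and 95% counting intervals on both axes. Fgb lies at -0.59 and -1.13, at the lower edge of the cloud, C3 at 0.60 and 0.54, and Rbp4 at -0.01 and -0.06, near its centre.

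The ratio of enrichments asked whether recovery with YTHDF1 differed with the guide beyond the difference in input. For Fgb it was 1.46-fold lower with the Usp5 guide (log2 difference -0.54, -0.68 to -0.41). C3 was at -0.06 (-0.14 to 0.02) and Rbp4 at -0.05 (-0.11 to 0.01), both intervals with 0. With library totals in place of TMM factors they were -0.11 (-0.19 to -0.03) and -0.10 (-0.16 to -0.05), without 0, so whether these small differences exceed counting error depends on the scaling. None of the 3 members was called, beside 27.2% of all genes and 2.99% of those at 32 CPM or more. The widened interval of Fgb, -1.62 to 0.54, included no difference, and 8.79% of genes at 32 CPM or more were lower than Fgb by this measure.

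Ratios of reads within a library depend on no scaling factor and, compared between libraries, on no gene length. In the inputs there were 41.9 Fgb reads per 100 Rbp4 reads with the control guide (95% exact interval 40.3 to 43.6) and 28.1 with the Usp5 guide (26.8 to 29.3). In the RIP libraries these were 15.1 (14.4 to 15.8) and 7.19 (6.70 to 7.70). C3 went the other way, with 52.4 (control) and 79.9 (Usp5 guide) reads per 100 Rbp4 reads in the inputs, and with 30.8 and 46.7 after precipitation. Fgb against C3 gave 80.0 and 35.1 reads per 100 before precipitation and 49.0 and 15.4 after it. The mix of the 3 measured mRNAs thus differed between these libraries beyond counting error in both fractions, whatever the normalisation. These ratios use the same reads as the differences above, and their intervals were not widened by the scatter between libraries. The widened interval of Fgb in the inputs included no difference. Whether the mix differs beyond the spread of replicate libraries was not tested.

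**Figure D5:**
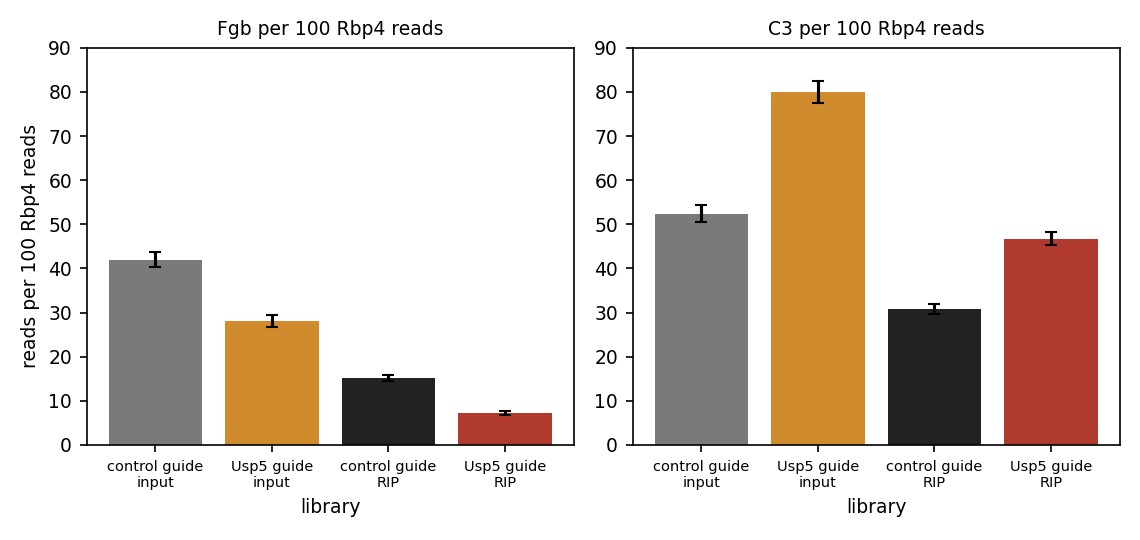
Reads of Fgb (left) and of C3 (right) per 100 reads of Rbp4 in each of the 4 libraries, with 95% exact counting intervals. The Usp5 guide bar is lower than the control bar of its fraction for Fgb (28.1 against 41.9 in the inputs, 7.19 against 15.1 in the RIP) and higher for C3 (79.9 against 52.4, 46.7 against 30.8).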

How the data were processed

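The authors deposited raw read counts per Ensembl gene ID for 4 libraries, made with HISAT2 2.1.0, featureCounts 1.6.3 and mm10, per the submitters' processing notes. Not given in the sources used here: annotation release, strand, multiple matches, duplicates. Columns were matched by the short names in the labels, with 0 columns left over. Gene symbols of the 10 members came with the list of IDs. The reference table (GRCm38.p6) pairs no Ensembl IDs with symbols, so the other gene and marker lists, per-length levels and non-members by name were not analysed here. The rule for the members uses no measured value, but members and lists were proposed with earlier results of these data known.

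Counts were scaled with TMM factors of 0.926 to 1.06 (edgeR 4.0.16, R 4.3.3), and 12927 genes at a mean of 1 CPM or more were tested. Log2 ratios had 0.5 counts added, with Clopper-Pearson 95% intervals on the split of reads, or the sum of reciprocal counts for the ratio of enrichments. RIP over input across both lines was tested with edgeR's quasi-likelihood test with line as a term and Benjamini-Hochberg adjustment over all genes; calls are at an adjusted p under 0.05. Its SE is the log2 ratio over the square root of F. DESeq2 1.42.0 was an alternative. Named genes are all 10 members. Simulated counts with known folds were run through the code for the ratios and for the test over both lines. The widened intervals and the ratio of enrichments were not part of that run, which does not show the spread of these libraries. Promoters are RefSeq's, the 250 bases before each start.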

Additional observations from a re-analysis of the deposited data

Results flagged for a closer look

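Ahsg, the fetuin-A gene, was flagged because its estimates had opposite signs in the 2 lines. Log2 RIP over input was 1.00 (95% counting interval -0.13 to 2.33, which includes 0) with the control guide and -1.41 (-2.19 to -0.71) with the Usp5 guide. The gap lies in the inputs, with 9 and 60 reads, as both RIP libraries had 23 reads. The ratio of enrichments, Usp5 guide minus control, was -2.40 on the log2 scale (-3.69 to -1.12, counting error only). By this ratio 27.3% of the 18511 genes with 10 reads in all were called. With 1 library on each side the value of Ahsg has no replicate check and the difference was not tested against replicate spread, and the gene is under the minimum of 1 CPM. Its span overlaps that of the lncRNA gene Gm30505 by 2372 bases. With TMM factors no other member with reads in all 4 libraries had estimates of opposite sign between lines or fractions. With library totals, Usp5 guide over control for Rbp4 was 0.052 in the inputs (0.008 to 0.095) and -0.050 in the RIP libraries (-0.086 to -0.015).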

How the results depend on the processing

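Of 126 ratios of Fgb, C3 and Rbp4 under other settings, 118 kept their direction and their side of the threshold, 7 changed side and 1 changed sign. Part of the 118 could not have changed. Filters on reads or mean CPM alter only the test over both lines, and leave every other ratio and interval of these genes as it was. Widened intervals keep the ratio and so its direction. The tally thus overstates how many ratios were put to a check. With library totals alone, Fgb in control RIP over input was -0.84 and not called, which left 0 members called there, and the input ratio of Rbp4 was 0.052 instead of -0.01; totals move the median log2 RIP over input over all genes to 0.21 (control) and 0.15 (Usp5 guide). They moved 10 of 12 levels of the 3 genes outside their counting interval. In the test over both lines Rbp4 (0.40 with DESeq2 size factors, 0.43 over genes with 10 reads in all, 0.43 with no replicate block) and Fgb (-1.21 with no replicate block) were no longer called.

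Widened intervals left 0 members called for RIP over input in either line (Fgb at -1.02 and -1.56), but that scatter holds recovery with the antibody itself. It was taken in 2 classes of genes, and Fgb, at a mean of 71.9 CPM, is just above their bound, a mean log2 CPM of 6. Above the bound the scatter was 705 (control) and 551 (Usp5 guide) times the binomial variance, and below it 89.7 and 79.2. Intervals of Fgb with the lower factors were not run. In the order control RIP over input, Usp5 guide RIP over input, inputs, RIP libraries and ratio of enrichments, the genes called numbered 591, 455, 171, 146 and 194 with widened intervals, and 1085, 809, 114, 9 and 157 among genes at a mean of 32 CPM or more, beside 4323, 3829, 3180, 1186 and 3512. Over the 18511 genes with 10 reads in all they numbered 7478, 6990, 5616, 4180 and 5045 (40.4%, 37.8%, 30.3%, 22.6% and 27.3%), and 2, 4, 3, 2 and 1 of 7 members were called, of which 4 had at most 115 reads in all. Wider intervals lower the numbers by construction. At 32 CPM or more the share called fell too (24.6% to 2.17% in the inputs, 9.17% to 0.172% in the RIP libraries), and the cause was not tested. The test over both lines, run on genes at 32 CPM or more alone, called 2855 of 5244, and on genes with 10 reads in all 2096 of 18511. Upper-quartile factors and 2 counts added changed no call of a member. Levels per kb of coding length were not run, since no lengths were used here. Depth limits the 7 members under 1 CPM.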
